A study of Mus musculus with 9 samples.

Results

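Cell cycle and mitosis genes were followed array by array in the brain of APP/PS1 mice, a model of amyloid deposition, and of controls. The group was given as a list of 39 gene names, 9 of DNA replication and 30 of mitosis. A gene counted as measured where a probe set carried its symbol alone, which held for 38 of the 39, among 19938 genes measured in all. Ccnb1 had no such probe set, so 29 mitosis genes remained. The list was not chosen by level, but the genes were selected with earlier results of these arrays known. There were 9 brain samples, 3 in each of 3 groups, each on its own GeneChip Mouse Gene 1.0 ST array. The control group was of C57/6J mice given saline. The model group was of APP/PS1 mice, with transgenes of amyloid precursor protein and of presenilin 1, given saline. The HPYD group was of APP/PS1 mice given HPYD, a peptide of 10 residues made to break up amyloid sheets. Saline or peptide (33 mg/mL) was given into the nose, 5 μL a day over 30 days, and the transgenic mice had been bought when 8 months old. The controls shared their background and age, and all brains were taken after a water maze test. The sources used here give neither the brain region nor the transgene line and the promoter that drives it. Values are log2 signals, on which a difference of 1 is a doubling, and a value can be compared between arrays but not between genes. The sources do not state that each array came from a mouse of its own, so each p-value measures only the spread between samples, and that may be technical.

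A cell that divides copies its DNA in S phase and parts the copies in mitosis. The Mcm2 to Mcm7 proteins form the ring that unwinds DNA at the start of replication, Cdc6 loads it and Dbf4 activates the kinase that fires it. Cyclins A and B with the kinase Cdk1 drive entry into mitosis, Aurora and Polo kinases build the spindle, the kinetochore ties chromosomes to it, and Cdc20 starts the exit. Mature neurons do not divide, so in the adult brain these genes are known mainly from the few stem cells of its germinal niches, from glial precursors and from endothelium. In bone marrow they are abundant in the dividing precursors of granulocytes and red cells. Mpo, the gene of myeloperoxidase, is made by granulocyte precursors and is given here beside the cell cycle genes in every array.

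The array labelled HPYD group 3 went against its label. App was 12.53 in it, against 12.98 and 13.01 in HPYD groups 1 and 2 and 12.56 to 12.62 in the controls, and Prnp, the prion protein gene, was 11.52 against 12.54 and 12.47. Xist, the RNA that coats the inactive X chromosome, was at 5.22 there and at 11.33 and 11.47 in HPYD groups 1 and 2. Kdm5d, on the Y chromosome, was at 7.84 there and at 5.03 and 5.23 in them. The controls were also low in Xist (5.20 to 5.69) and the model arrays high (11.18 to 11.78), so sex and genotype cannot be told apart between these groups. The array was kept in the HPYD group unless stated. Model group 2 correlated least with the other arrays (mean r = 0.977 over all genes, against 0.983 to 0.990). Brain markers were present in all arrays: the synaptic gene Snap25 lay between 13.08 and 13.27.

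The promoters of these genes are shown because cell cycle genes are known to share short control sequences. In the mitosis genes these are the CHR (searched as TTTGAA or TTTAAA) and CCAAT boxes, and in replication genes sites of E2F factors (searched as TTCCCGC or TTGGCGC). All were searched on both strands, from 250 bases before to 50 bases after the gene start, in the promoters of RefSeq (GRCm38.p6). Of the 38 measured genes, 33 had an entry, with 36 promoters, and Mcm4, Ccna2, Aurkb, Kif20a and Tpx2 had none. Printed below are the 4 mitosis and 2 replication genes with the largest difference from the control mean in model group 2 among those with an entry. Each run holds 220 bases before and 30 after the start, 5′ to 3′ along the gene, and capitals mark matches of the 3 motifs on either strand, so that a CCAAT box on the other strand reads ATTGG. No matches overlapped in these runs.
Mki67 (chr7:135716350-135716599, minus strand): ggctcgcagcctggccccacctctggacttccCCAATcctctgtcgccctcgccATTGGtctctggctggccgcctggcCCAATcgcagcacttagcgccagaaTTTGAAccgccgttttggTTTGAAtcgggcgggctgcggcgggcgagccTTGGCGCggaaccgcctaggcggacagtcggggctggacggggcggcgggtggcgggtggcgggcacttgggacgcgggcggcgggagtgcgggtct
Ccnb2 (chr9:70421525-70421774, minus strand): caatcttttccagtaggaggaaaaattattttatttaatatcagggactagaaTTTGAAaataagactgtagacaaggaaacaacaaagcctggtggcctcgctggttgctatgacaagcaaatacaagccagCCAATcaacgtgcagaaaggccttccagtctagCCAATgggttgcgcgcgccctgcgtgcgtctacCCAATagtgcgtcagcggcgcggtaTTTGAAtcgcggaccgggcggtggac
Top2a (chr11:99024160-99024409, minus strand): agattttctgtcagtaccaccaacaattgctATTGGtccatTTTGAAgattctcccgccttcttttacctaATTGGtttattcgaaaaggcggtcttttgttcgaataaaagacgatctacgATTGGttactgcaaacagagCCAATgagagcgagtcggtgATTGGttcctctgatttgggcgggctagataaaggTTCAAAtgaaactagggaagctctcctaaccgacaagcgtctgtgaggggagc
Cdk1 (chr10:69352883-69353132, minus strand): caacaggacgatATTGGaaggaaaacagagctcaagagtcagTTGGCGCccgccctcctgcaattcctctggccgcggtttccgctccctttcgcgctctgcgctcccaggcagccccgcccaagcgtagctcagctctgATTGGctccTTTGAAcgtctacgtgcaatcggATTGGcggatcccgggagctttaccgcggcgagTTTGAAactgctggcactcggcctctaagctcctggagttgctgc
Rrm2 (chr12:24708034-24708283, plus strand): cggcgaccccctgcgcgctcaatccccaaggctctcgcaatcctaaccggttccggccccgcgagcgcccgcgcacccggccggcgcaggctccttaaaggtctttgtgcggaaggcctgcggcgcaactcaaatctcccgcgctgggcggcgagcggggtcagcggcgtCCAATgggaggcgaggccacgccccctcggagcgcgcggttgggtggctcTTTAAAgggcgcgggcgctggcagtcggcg
Mcm2 (chr6:88898751-88899000, minus strand): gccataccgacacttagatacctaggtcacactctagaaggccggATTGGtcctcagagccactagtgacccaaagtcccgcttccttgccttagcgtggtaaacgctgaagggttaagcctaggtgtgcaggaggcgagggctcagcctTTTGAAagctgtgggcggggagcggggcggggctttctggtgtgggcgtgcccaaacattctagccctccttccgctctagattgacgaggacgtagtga

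Both CCAAT boxes and CHR were frequent in the mitosis genes. A CHR stood in 22 of 27 mitosis promoters (81.5%) and in 4 of 9 replication promoters (44.4%), against 27.6% of all 32851 promoters. A CCAAT box stood in 77.8% of the promoters of either phase, against 37.4% of all, and 2 or more boxes in 48.1% of mitosis and 44.4% of replication promoters, against 11.7%. The E2F site had the opposite balance, in 6 of 9 replication promoters (66.7%) and 6 of 27 mitosis promoters (22.2%), against 6.81% of all. Ccnb2, the gene of cyclin B2, held CCAAT boxes at positions -87, -54 and -21 and CHR matches at positions -167 and 4, counted in bases from the gene start. Top2a, the topoisomerase that untangles chromosomes, held 5 boxes in the printed run. Melk, Nuf2 and Nusap1 held no match of any of the 3 motifs. These are matches of letters, given as a description of the genes, and binding was not measured.

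**Figure D1:**
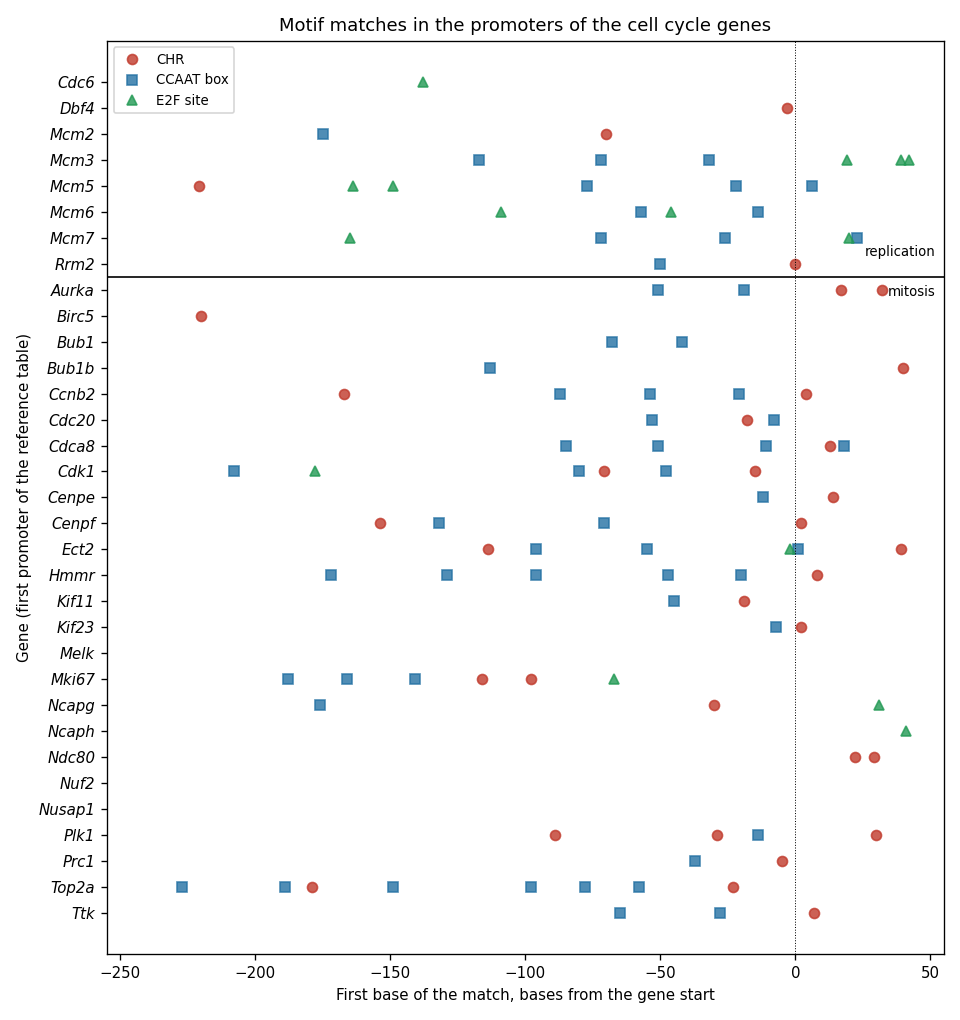
Position of each CHR (circles), CCAAT box (squares) and E2F site (triangles) in the promoter of each cell cycle gene, in bases from the gene start (horizontal axis; vertical axis, genes, replication above and mitosis below the line). Only the first promoter of each gene is drawn. Counted over all promoters, second ones included, E2F sites stand in 6 of 9 replication promoters and 6 of 27 mitosis promoters.

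Mki67, the gene of the proliferation antigen Ki-67, had the widest range of the 38 genes. It was 6.12, 6.24 and 5.99 in the 3 control arrays, 7.86, 8.85 and 5.97 in the model arrays and 5.83, 7.36 and 6.04 in the HPYD arrays, each in the order of replicates 1 to 3. Model group 1, model group 2 and HPYD group 2 stood above all others, while model group 3, HPYD group 1 and the array labelled HPYD group 3 lay within 0.29 of the control mean. Mpo was high in the same arrays, at 9.92 in model group 1, 10.28 in model group 2 and 9.34 in HPYD group 2. In model group 3 and in HPYD groups 1 and 3 it was 5.90, 5.79 and 6.33, and in the controls 6.09, 6.32 and 6.38. No Mpo value lay between 6.38 and 9.34. With the arrays in 2 such clusters, no correlation with Mpo is given.

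Ccna2, Ccnb2 and Cdk1 had the same 3 highest arrays, and Ccnb2 was higher in HPYD group 2 than in model group 1. Ccna2, cyclin A2, was 6.12, 6.27 and 6.22 in the controls, 7.46, 8.32 and 6.02 in the model arrays and 6.07, 7.09 and 5.92 in the HPYD arrays. Ccnb2 was 6.89, 6.79 and 6.65, then 7.57, 8.95 and 6.62, then 6.56, 7.62 and 6.95. For both genes the model and control arrays overlapped, because model group 3 lay below every control. Cdk1, the kinase of mitotic entry, was 5.97, 6.04 and 5.71 in the controls, 6.99, 7.66 and 6.20 in the model arrays and 5.95, 6.67 and 6.20 in the HPYD arrays. Here model group 3 was above the controls too, so that no control reached any model array. The study singled out Cdk1 on these arrays, and its direction here is not independent evidence. The study also listed Cdk1 primers for RT-qPCR and reported good concordance with the arrays for its selected genes. Those measurements were not compared here. Cdc20, the activator that ends mitosis, varied less, between 5.81 and 6.49 over the 9 arrays. The median difference of these 4 genes from the control mean was 0.94, 1.93 and -0.02 in the model arrays and -0.04, 0.81 and 0.23 in the HPYD arrays.

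**Figure D2:**
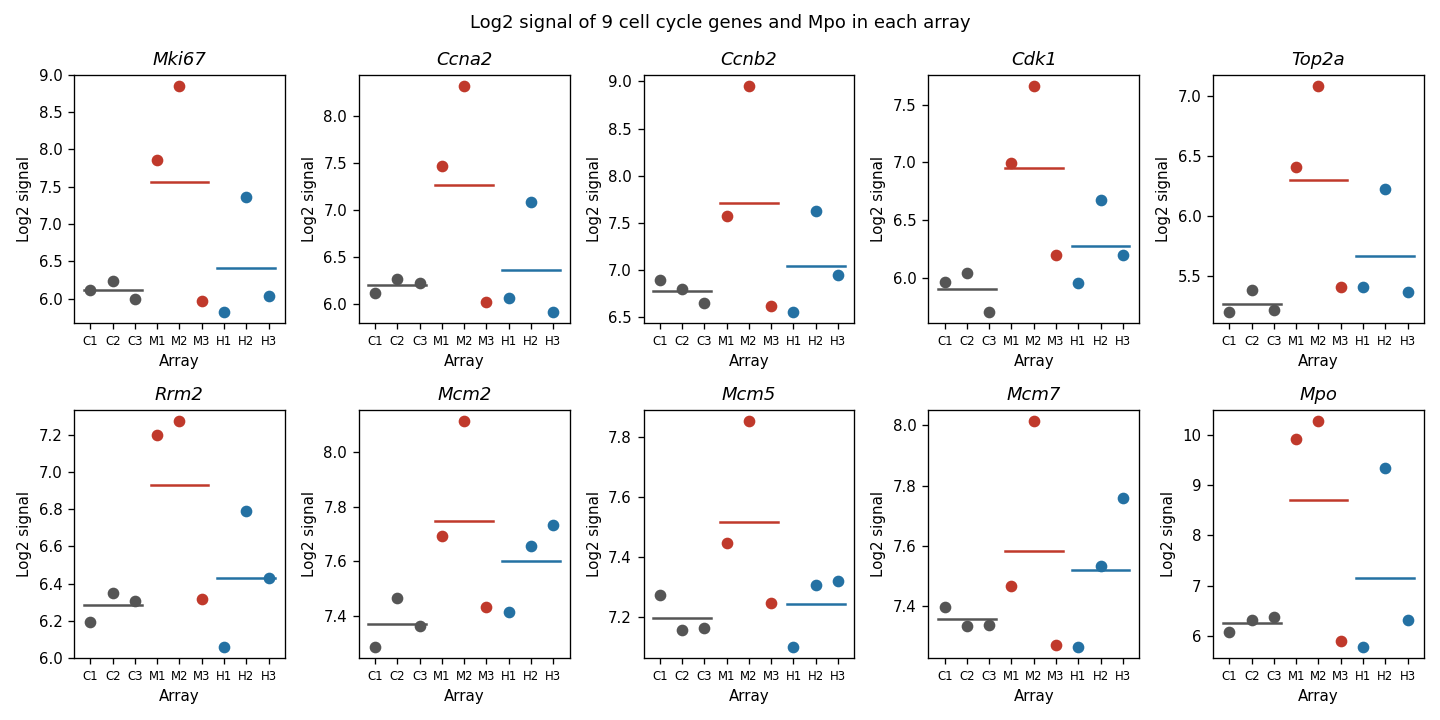
Log2 signal (vertical axis, its own scale in each panel) of 9 cell cycle genes and Mpo in each array (horizontal axis: C, control group; M, model group; H, HPYD group). Each point is an array and each line a group mean; M1, M2 and H2 are the 3 highest arrays for Mki67, Ccna2, Ccnb2, Cdk1, Top2a and Rrm2, as they are for Mpo.

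Top2a was 5.20, 5.39 and 5.22 in the controls, 6.41, 7.08 and 5.41 in the model arrays and 5.41, 6.23 and 5.37 in the HPYD arrays. Model group 3 lay 0.14 above the control mean, just above the highest control. A dimmer probe set of Top2a, not used because its mean was lower, did not show this order: it was 2.96, 3.11 and 3.39 in the controls, 3.07, 3.18 and 3.47 in the model arrays and 3.12, 3.09 and 3.00 in the HPYD arrays. Top2a was the only member with several probe sets.

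Among the mitotic kinases, Plk1, which matures the spindle poles, was 6.37, 6.23 and 6.36 in the controls, 7.16, 7.61 and 6.38 in the model arrays and 6.31, 6.87 and 6.22 in the HPYD arrays. Aurkb, the kinase of the chromosomal passenger complex, was 6.34, 6.16 and 6.20, then 6.92, 7.31 and 6.09, then 6.08, 6.68 and 6.37. Bub1, a kinase of the spindle checkpoint, was 4.34, 4.32 and 4.57, then 4.92, 5.79 and 4.49, then 4.57, 4.60 and 4.43. For Plk1, Aurkb and Bub1 the order of the 3 highest arrays was that of Mpo, though Bub1 in HPYD group 2 was only just above the highest control. The other kinases had narrower ranges over all arrays, the widest that of Bub1b, of the checkpoint, from 5.70 to 6.53. Aurka, of the spindle poles, ranged from 6.40 to 6.80. Ttk, which starts the checkpoint, ranged from 4.75 to 5.21 and Melk from 5.59 to 5.87. The median difference of the 7 kinases from the control mean was 0.33, 0.55 and -0.02 in the model arrays and -0.15, 0.18 and 0.02 in the HPYD arrays.

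Kinetochore genes had smaller differences over a narrower spread. Nuf2 and Ndc80 are subunits of the complex that grips microtubules. Nuf2 was 4.67, 4.61 and 4.63 in the controls, 4.95, 4.94 and 4.72 in the model arrays and 4.67, 4.62 and 4.67 in the HPYD arrays. Ndc80 was 4.77, 4.80 and 4.80, then 5.16, 5.22 and 4.80, then 4.73, 4.69 and 4.76. Both were raised in model groups 1 and 2 and not in HPYD group 2, so they did not share the pattern of Mpo there. Ncaph, a condensin subunit that compacts chromosomes, was 5.13, 5.16 and 5.17, then 5.63, 5.85 and 5.26, then 5.11, 5.30 and 5.25. Its partner Ncapg was above the controls (4.66 to 4.68) in model groups 1 and 2 and HPYD group 2 (4.76, 5.17 and 4.73). It was below them in model group 3 (4.49) and HPYD group 1 (4.55). Birc5 (survivin) and Cdca8 (borealin), of the passenger complex, lay between 5.06 and 5.44 and between 5.24 and 5.64 over all arrays. Cenpe, a kinetochore motor, ranged from 4.50 to 4.84 and Cenpf, of the outer kinetochore, from 5.32 to 5.78. The median difference of the 8 genes was 0.30, 0.36 and 0.07 in the model arrays and -0.01, 0.07 and 0.02 in the HPYD arrays.

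All 8 genes of the spindle, its motors and cytokinesis were higher in model groups 1 and 2 than in any control (25.3% and 30.1% of all genes). Kif11, the motor that pushes the spindle poles apart, was 5.34, 5.69 and 5.65 in the controls, 6.22, 6.93 and 5.63 in the model arrays and 5.52, 5.76 and 5.36 in the HPYD arrays. Nusap1, which bundles spindle microtubules, was 4.77, 5.05 and 5.06, then 5.59, 6.25 and 4.97, then 5.04, 5.47 and 4.81. Prc1, a bundler of the central spindle, was 5.10, 5.03 and 5.06, then 5.44, 5.68 and 5.11, then 4.96, 5.10 and 4.94. Prc1 in HPYD group 2 was listed at exactly the value of the highest control, while Nusap1 there was above every control. The central spindle motors Kif20a and Kif23 reached 5.98 and 6.61 in model group 2, against at most 5.50 and 5.86 in the controls. Ect2, which places the cleavage furrow, reached 6.25 there, the spindle assembly factor Tpx2 6.76 and the hyaluronan receptor Hmmr, which also binds the spindle, 4.65, against at most 5.46, 6.11 and 3.97. The median difference of the 8 genes was 0.43, 0.75 and 0.05 in the model arrays and -0.11, 0.15 and -0.14 in the HPYD arrays.

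Replication genes had another order of arrays for several members. Rrm2, the ribonucleotide reductase subunit that supplies DNA building blocks in S phase, was 6.19, 6.35 and 6.30 in the controls, 7.20, 7.28 and 6.32 in the model arrays and 6.06, 6.79 and 6.43 in the HPYD arrays. Of the replication genes, Rrm2 alone had its 3 highest arrays in the order of Mpo. Mcm6 had the same 3 arrays on top in another order, at 7.17 in model group 1, 7.59 in model group 2 and 7.31 in HPYD group 2, against at most 7.02 in all others. Mcm2 was 7.29, 7.46 and 7.36 in the controls, 7.69, 8.11 and 7.43 in the model arrays and 7.41, 7.66 and 7.73 in the HPYD arrays. Mcm7 was 7.40, 7.33 and 7.34, then 7.47, 8.01 and 7.27, then 7.27, 7.53 and 7.76. For Mcm2, Mcm5 and Mcm7 the array labelled HPYD group 3, which was low in Mpo, was higher than HPYD group 2, and for Mcm2 and Mcm7 it was second only to model group 2.

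Among the other replication genes, Mcm5 was 7.27, 7.16 and 7.16 in the controls, 7.44, 7.85 and 7.25 in the model arrays and 7.10, 7.31 and 7.32 in the HPYD arrays. Mcm3 was 5.49, 5.72 and 5.70, then 5.97, 6.02 and 5.74, then 5.72, 5.72 and 5.63, so that every model array was above every control and HPYD array. Dbf4 was 4.96, 4.80 and 4.65, then 5.15, 5.22 and 5.07, then 4.94, 4.86 and 4.95, with the same separation. Mcm4 reached 7.80 in model group 2 and lay between 7.28 and 7.56 elsewhere. Cdc6 stood apart from the rest, since its highest array was HPYD group 2 (6.09), and the model arrays (5.60 to 5.67) lay within the controls (5.58 to 5.74). The median difference of the 9 replication genes from the control mean was 0.25, 0.61 and 0.03 in the model arrays and -0.08, 0.18 and 0.12 in the HPYD arrays. For the 29 mitosis genes it was 0.40, 0.70 and 0.04, then -0.06, 0.18 and 0.02.

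**Figure D3:**
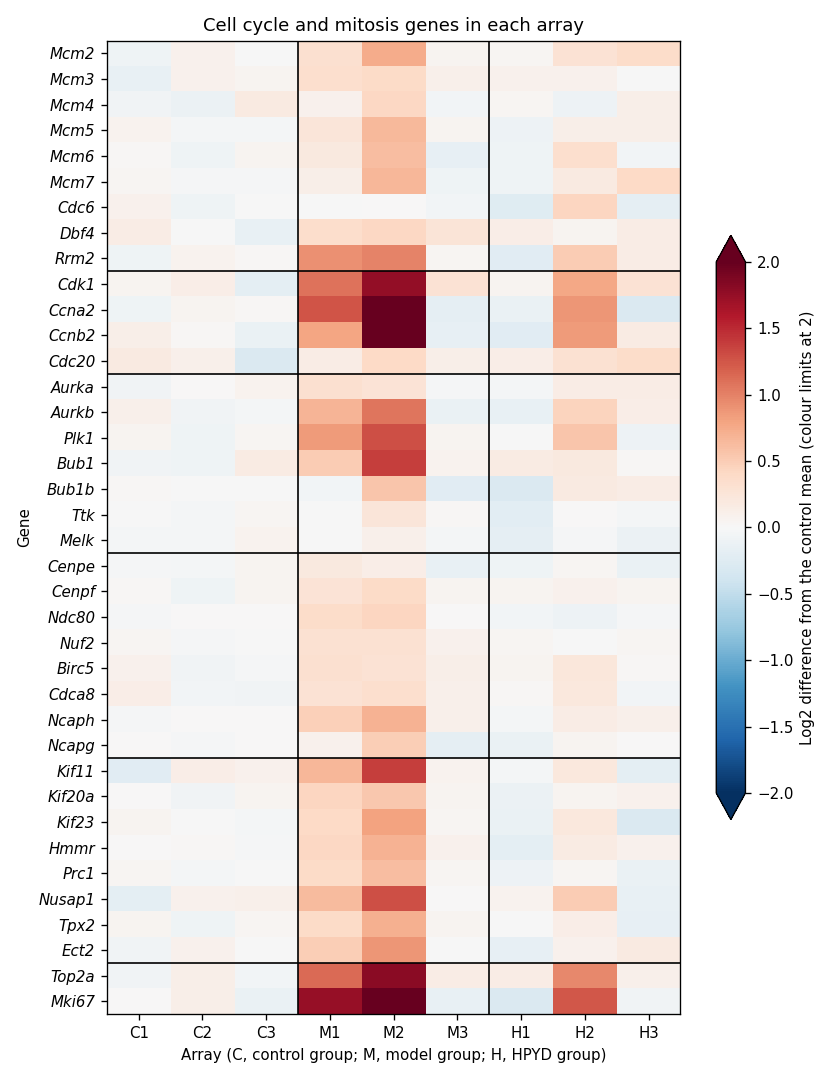
Log2 difference of each of the 38 cell cycle genes (vertical axis, grouped by role, replication on top) from its control mean in each array (horizontal axis: C, control group; M, model group; H, HPYD group); colour stops at 2 on either side. M2 and M1 are red for most genes (37 and 32 of 38 above every control) and H2 for 29. Differences in M3, H1 and H3 lie between -0.29 and 0.40.

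Counted over the 38 genes, 32 were above all 3 control arrays in model group 1 (background 25.3% of all genes), 37 in model group 2 (30.1%) and 11 in model group 3 (19.1%). In HPYD groups 1 and 2 the counts were 2 (20.6%) and 29 (29.6%), and 14 genes (39.6%) were above the controls in the array labelled HPYD group 3. Below all controls were 1, 0 and 9 genes in the model arrays (28.8%, 38% and 20.9% of all genes) and 20, 1 and 10 in the HPYD arrays (28.1%, 26.4% and 27.5%). The array labelled HPYD group 3 was thus close to the background in both directions, and HPYD group 1 was above it on the low side. Model group 2 was the highest array for 33 of the 38 genes, against 14.2% of all genes. The 3 arrays highest in Mpo were also the 3 highest for 18 of 29 mitosis genes and 2 of 9 replication genes, Mcm6 and Rrm2, against 3.81% of all genes. They stood in the order of Mpo (model group 2, model group 1, HPYD group 2) for 16 mitosis genes and for Rrm2, against 1.68%.

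The 18 mitosis genes for which these were the 3 highest arrays came from every role. They included both chromosome markers, Mki67 and Top2a, 3 of 4 in the group of cyclins and Cdk1, 5 of 8 spindle genes, 5 of 8 kinetochore and condensin genes and 3 of 7 kinases. Of the 38 genes, 25 were in the dimmest 33.3% of all genes, among them 3 of the 9 replication genes.

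Markers of blood-forming cells and of muscle were raised in the same arrays. All 8 granulocyte precursor genes were above every control in model group 1 and HPYD group 2 (25.3% and 29.6% of all genes). They were Mpo, Elane, Prtn3, Ctsg, Ms4a3, Cebpe, Gfi1 and Fcnb, and 7 of the 8 were above in model group 2 (30.1%). Their summed linear signal was 466 to 510 in the controls, 2786, 3214 and 428 in the model arrays and 412, 1819 and 470 in the HPYD arrays. Elane, the neutrophil elastase gene, was 9.35 and 9.38 in model groups 1 and 2, 8.76 in HPYD group 2 and between 5.37 and 6.05 in the others. All 10 genes of later granulocytes and all 8 measured genes of erythroid precursors were above the controls in the same 3 arrays, against those shares of all genes. The erythroid sum was 443 to 469 in the controls, 949, 2187 and 398 in the model arrays and 412, 1117 and 520 in the HPYD arrays. Slc4a1, the band 3 gene of red cells, was 8.01, 9.57 and 8.22 in the 3 raised arrays and 6.11 to 6.71 elsewhere.

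The 5 measured genes of megakaryocytes and platelets summed to 476 to 574 in the controls, 3504, 4920 and 432 in the model arrays and 416, 2227 and 589 in the HPYD arrays. The 10 skeletal muscle genes summed to 921 to 973, then 4711, 14567 and 931, then 904, 1688 and 934. Mpo thus had the order of granulocyte, platelet and muscle genes alike, with model group 2 highest, then model group 1 and then HPYD group 2. Erythroid genes differed, since their sum in HPYD group 2 was above that in model group 1. For B cell precursors, 7, 6 and 2 of 9 genes were above the controls in the model arrays (25.3%, 30.1% and 19.1% of all genes). In the HPYD arrays 2, 6 and 5 were (20.6%, 29.6% and 39.6%). No marker was listed at 0, and the lowest value on the arrays was 2.37. These markers were high in the arrays where the cell cycle genes were, and their part in the result was not tested. In whole tissue, more cells of a dividing type and more of its RNA per cell cannot be told apart.

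Markers of the brain's own dividing or young cells were mixed. The median difference of 9 genes of neural stem cells and neuroblasts was -0.11, -0.41 and -0.11 in the model arrays and -0.16, -0.11 and -0.51 in the HPYD arrays. Dcx, of migrating young neurons, was 8.05 to 8.38 in the controls. It differed from the control mean by -0.29, -0.87 and -0.04 in the model arrays and by -0.25, -0.18 and -0.66 in the HPYD arrays. Dlx1 was lowest in model group 2 and the array labelled HPYD group 3, at differences of -2.36 and -1.91. Other genes of this list went the other way. Neurod1, of young and of cerebellar granule neurons, was 7.74 to 8.44 in the controls, 8.65, 11.17 and 8.64 in the model arrays and 7.84, 8.81 and 10.93 in the HPYD arrays. Eomes, of neuron progenitors, reached 8.01 in model group 2 and 7.67 in the array that bears the label HPYD group 3, against at most 6.27 elsewhere. Nes, of neural stem cells, was highest in HPYD group 2 (6.44, against 6.12 to 6.33 in the controls). Oligodendrocyte precursor genes were at -0.11, -0.11 and 0.02, then 0.03, -0.05 and -0.19, and microglial genes at 0.09, -0.43 and 0.29, then 0.18, 0.20 and -0.59. Genes of neurons, astrocytes and oligodendrocytes had median differences between -0.24 and 0.21 for the first and second of these lists and between 0.07 and 0.59 for the third over the model and HPYD arrays.

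A list of cerebellar granule cell genes, chosen after the values were seen, was highest in model group 2, as were most cell cycle genes, and in the array labelled HPYD group 3. Gabra6, a receptor subunit of these neurons, reached 11.35 in model group 2 and 11.29 in the array that bears the label HPYD group 3, against 4.54 to 8.20 in the other arrays. The sum of the 8 genes was 1731 to 3243 in the controls, 2968, 19784 and 3006 in the model arrays and 2734, 3801 and 18957 in the HPYD arrays. These are the arrays highest in Mcm2 and Mcm7. Mki67 in the array labelled HPYD group 3 was 6.04, within the controls. The part of this tissue difference in the values of the replication genes was not tested.

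**Figure D4:**
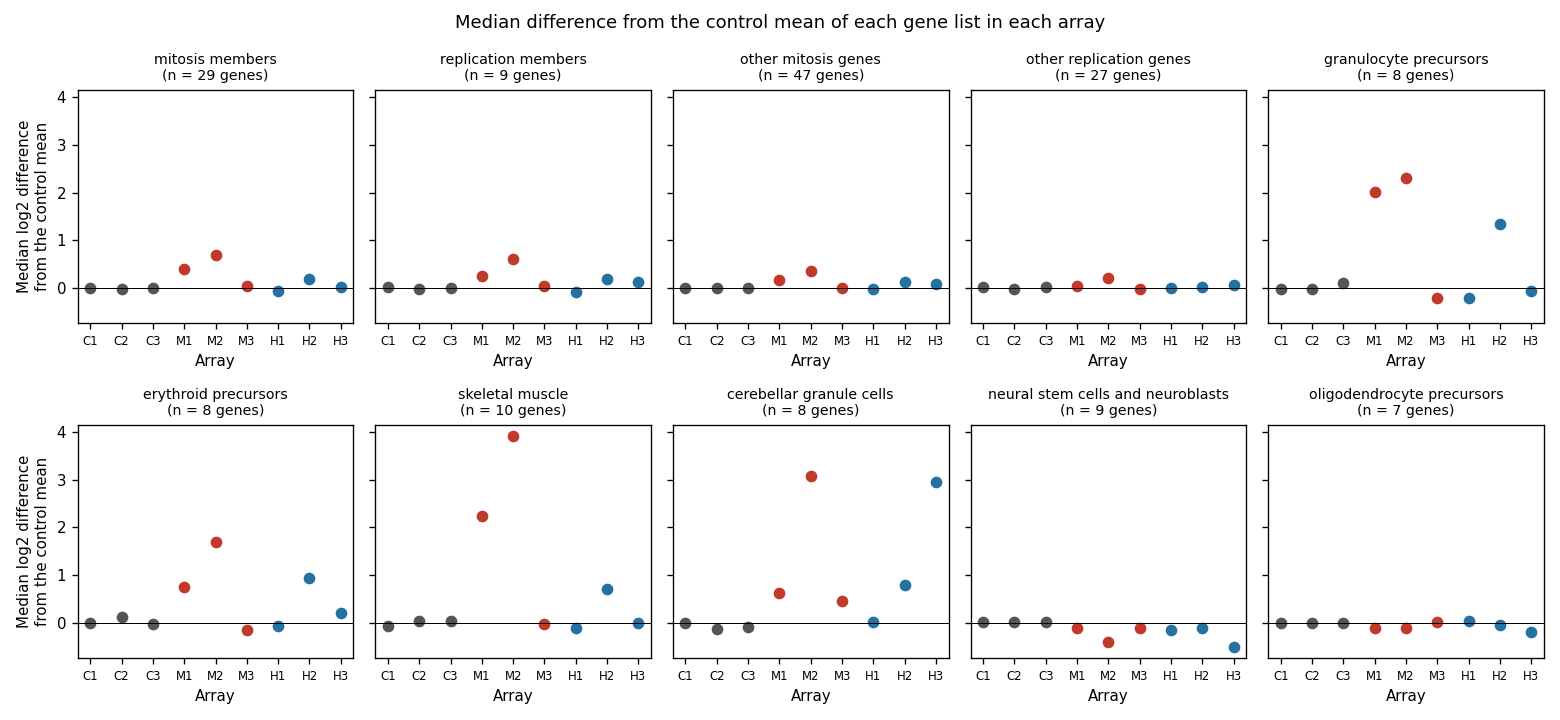
Difference in log2 signal from the mean of the controls, as the median over a gene list (vertical axis), by array (horizontal axis: C, control group; M, model group; H, HPYD group); each point is an array and n is the number of genes. The medians of mitosis genes in M1, M2 and H2 are 0.40, 0.70 and 0.18, and these arrays are also high in granulocyte precursor (2.01, 2.31 and 1.33), erythroid and muscle genes, whereas cerebellar granule cell genes are highest in M2 and H3 (3.07 and 2.96).

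The comparison of model with control asked whether these genes differ in the APP/PS1 brain. The group means of Mki67 were 7.56 ± 1.46 (SD, n = 3 arrays) and 6.12 ± 0.12, those of Cdk1 6.95 ± 0.73 and 5.90 ± 0.18, and those of Top2a 6.30 ± 0.84 and 5.27 ± 0.10. The log2 fold changes were 1.44 (standard error 0.68), 1.05 (standard error 0.34) and 1.03 (standard error 0.40), and limma's adjusted p was 0.859 for all 3. An exact two-sided permutation test gave p = 0.4 for Mki67 and p = 0.1 for Cdk1 and Top2a, the smallest that 3 arrays against 3 allow. Of the 38 genes, 0 had an adjusted p under 0.05 in limma, nor did any other gene (background 0%). At an unadjusted p under 0.05, 18 of the 38 were higher in the model group, 15 of mitosis and 3 of replication (background 2.87%), and 0 were lower (2.05%). The means were higher in the model group for 37 of 38, against 45% of all genes, with Cdc6 the exception. The median log2 difference was 0.34 over the 38 genes, 0.38 over mitosis and 0.27 over replication genes, against -0.01 over all genes.

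The genes with the smallest unadjusted p were not those with the largest difference. Dbf4 came first (0.34, standard error 0.09), followed by Nuf2 (0.23, standard error 0.07), Ncaph (0.43, standard error 0.14) and Cdk1. Birc5 was higher by 0.24 (standard error 0.08), Mcm3 by 0.27 (standard error 0.09) and Kif20a by 0.34 (standard error 0.12), while Cenpf, Prc1 and Hmmr differed by 0.24, 0.34 and 0.40 (standard errors 0.09, 0.13 and 0.15). All of these had an adjusted p of 0.859 from limma. Model group 3 was above the highest control for each of these 10 genes except Cenpf. For 11 genes every model array was above every control (background 4.83%), and for 0 below (4.68%): Mcm3, Dbf4, Cdk1, Plk1, Nuf2, Birc5, Ncaph, Kif20a, Hmmr, Prc1 and Top2a. Model groups 1 and 2 carried the size of the difference. Without model group 1 or without model group 2, the count at an unadjusted p under 0.05 was 4 in place of 18 (background 2.21% and 1.35%). Without model group 3 it was 30, and the background rose to 5.64%. It was 8, 5 and 7 without control group 1, 2 and 3 (background 1.24%, 2.28% and 1.86%).

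HPYD against model asked whether the peptide changes these levels in APP/PS1 mice, and the comparison shares the model arrays with the former. The HPYD means were 6.41 ± 0.83 (SD, n = 3 arrays) for Mki67, 6.27 ± 0.37 for Cdk1 and 5.67 ± 0.48 for Top2a. The log2 differences were -1.15 (standard error 0.68), -0.68 (standard error 0.34) and -0.63 (standard error 0.40), with an adjusted p of 1 from limma and p = 0.3 for each by the exact two-sided permutation test. The smallest unadjusted p-values belonged to Ndc80 (-0.33, standard error 0.10), Prc1 (-0.41, standard error 0.13) and Nuf2 (-0.21, standard error 0.07), also with an adjusted p of 1 from limma. Of the 38 genes, 0 passed over all genes (background 0%). At an unadjusted p under 0.05, 11 were lower, 9 of mitosis and 2 of replication (background 0.752%), and 0 were higher (1.22%). The means were lower for 36 of the 38, all but Cdc6 and Cdc20, while 57.5% of all genes had a higher mean. The arrays did not overlap for 5 genes, all lower (background 0.983%; higher, 0 genes, 2.24%): Mcm3, Dbf4, Ndc80, Nuf2 and Prc1. The median difference was -0.30, with -0.38 over mitosis and -0.15 over replication genes, against 0.02 over all genes. The replication median was 0.0068 without model group 2, so that its direction rested on that array. The count of 11 was 2 without model group 1, 2 without model group 2, 28 without model group 3, 4 without HPYD group 1 and 5 without the array labelled HPYD group 3. It was 7, 7 and 6 without control group 1, 2 and 3, which enter through the shared estimate of the spread. The share of all genes lower in each of these fits is not given here, so the counts cannot be set against it.

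**Figure D5:**
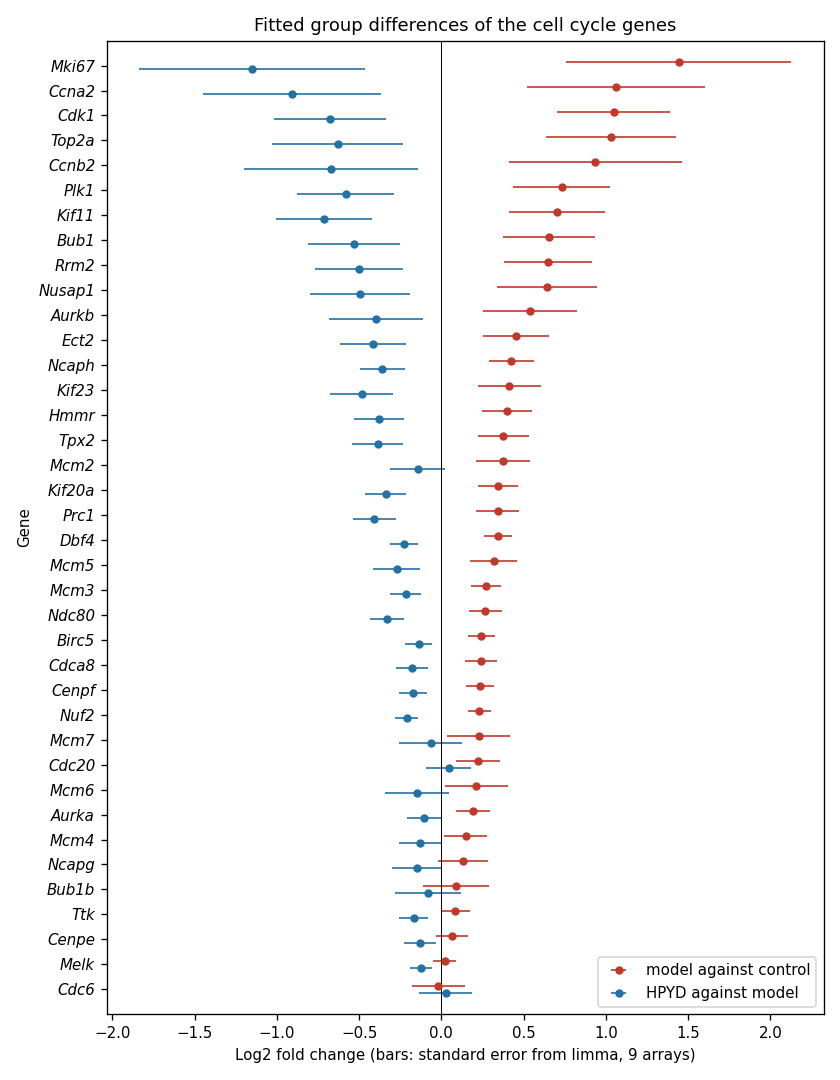
Fitted log2 fold change (horizontal axis) of each of the 38 cell cycle genes (vertical axis) for the model group over the control group and the HPYD group over the model group, with bars of 1 standard error from limma over 9 arrays. Both comparisons use the model arrays; Mki67 is at 1.44 and -1.15, and no gene passed limma's adjusted p.

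HPYD against control gave small differences. Mki67 was at 0.29 (standard error 0.68, adjusted p = 0.930 from limma), Cdk1 at 0.37 (standard error 0.34, adjusted p = 0.860) and Top2a at 0.40 (standard error 0.40, adjusted p = 0.860). The exact two-sided permutation test gave p = 0.9, 0.3 and 0.2. The smallest unadjusted p-values were those of Cdc20 (0.27, standard error 0.14), Melk (-0.11, standard error 0.07) and Mcm2 (0.23, standard error 0.17), and limma's adjusted p was 0.860 for all 3. Of the 38 genes, 0 passed over all genes (background 0%). At an unadjusted p under 0.05, 0 were higher (background 2%) and 0 lower (1.24%). The median difference was 0.06 against 0.01 over all genes, and 29 of 38 had a higher mean, against 54.3% of all genes. Only for Ndc80 did the arrays not overlap, with HPYD below control (background 4.74%; higher, 0 genes, 4.78%). HPYD group 2 decided the sign for Mki67, whose difference was -0.18 without it.

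Without model group 1, model group 2 and HPYD group 2 together, the arrays with raised granulocyte genes, model group 3 is the only model array, and its spread is assumed to be that of the others. The difference between model and control was then that of model group 3 alone. Its median was 0.038 over all 38 genes, 0.042 over mitosis and 0.033 over replication genes. The arrays left out were the highest for most mitosis genes, so a smaller difference followed from the choice. Cdk1 was at 0.29, Top2a at 0.14 and Mki67 at -0.15. With the Mpo level of each array as a covariate in the fit, the median was 0.14 over all 38 genes and also over mitosis genes. In that fit 1 of the 38 was higher at an unadjusted p under 0.05, against 1.03% of all genes. For HPYD against model the medians were -0.043 over all 38 and -0.046 over mitosis genes without the 3 arrays. The mitosis median was -0.17 with Mpo as a covariate. Mpo was high in the arrays where most mitosis genes were, so neither fit could test a part of granulocytes in the result.

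Other genes of the cell cycle, from lists that hold none of the 38, differed in the same direction by smaller amounts. Of 47 other mitosis genes, 34 and 38 were above every control in model groups 1 and 2 (25.3% and 30.1% of all genes), 28 in HPYD group 2 (29.6%) and 25 in the array that bears the label HPYD group 3 (39.6%). Their median difference between model and control was 0.16, and 45 of 47 had a higher mean, against 45% of all genes. At an unadjusted p under 0.05, 3 were higher and 0 lower, against 2.87% and 2.05% of all genes: Smc4, a condensin core subunit (0.65), Dlgap5, of the kinetochore fibres (0.53), and Sgol1, the shugoshin that guards cohesion (0.34). Smc4 was 6.52, 6.74 and 6.75 in the controls, 7.35, 7.82 and 6.78 in the model arrays and 6.87, 6.89 and 6.92 in the HPYD arrays, so that it was above the controls in all 6. Of 27 other replication genes, 24 were higher on average in the model group (45% of all genes), with a median of 0.12. Pcna, the sliding clamp of the DNA polymerases, was the only 1 of these 27 higher at an unadjusted p under 0.05 (0.18, standard error 0.06), a share of 3.70% against 2.87% of all genes, with an adjusted p of 0.859 from limma. Pcna was highest in model group 3 (9.84, against 9.74 and 9.83).

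Genes that act before S phase were mixed. Of 14 cyclins, kinases and E2F factors of G1, 8 were higher on average in the model group (45% of all genes), with a median of 0.10. At an unadjusted p under 0.05, 0 were higher and 1 lower (2.87% and 2.05% of all genes). That gene was Ccne1, cyclin E1 (-0.25, standard error 0.10, adjusted p = 0.859 from limma). E2f8, a repressor that is itself a cell cycle gene, was 5.11, 5.16 and 5.22 in the controls, 6.00, 6.36 and 5.01 in the model arrays and 5.14, 5.57 and 4.89 in the HPYD arrays. Its 3 highest arrays had the order of Mpo. Of 13 cell cycle inhibitors and quiescence genes, 8 had a higher mean (45% of all genes), with a median of 0.19. At an unadjusted p under 0.05, 0 of them passed in either direction (2.87% and 2.05%). None of the 13 had its 3 highest arrays in the 3 highest in Mpo, while 12 of the 47 other mitosis genes, 2 of the 27 other replication genes and 4 of the 14 G1 genes did, against 3.81% of all genes. For HPYD against model, 2 inhibitors were lower at an unadjusted p under 0.05, Cdkn2c and Btg2, beside Cenpa among the other mitosis genes and Pcna among the other replication genes, against 0.752% of all genes.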

How the data were processed

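RNA from the brain samples, 9 in all, was hybridised by the authors, who deposited 1 log2 value for each of 35556 probe sets and array, from 2.37 to 14.01, with array medians of 6.69 to 6.82. Per the labels' processing notes MAS5 was used (no version named), and the sources used here give no normalization, so values were taken as deposited. All sample columns were used (0 left unused). The labels name Trizol and biotinylated cRNA, the study's methods an RNeasy kit and labelled cDNA.

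Of the probe sets, 21789 had a single symbol, 1621 several, and 12146 were unnamed here. Where a gene had several probe sets (999 genes), the brightest on average was used. Entrez identifiers matched RefSeq for 19856 of the 19938 genes and for 38 of 38 members, and 0 symbols changed. The 3 groups were fitted together with limma 3.58.1 in R 4.3.3 (6 residual and 2.13 prior degrees of freedom), p-values were adjusted over all genes (Benjamini-Hochberg, threshold 0.05), and the fit was tested on simulated data. The number of arrays limits the precision, as do the dimness of 25 of the 38 genes and the repeated values of 12.

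Members, lists, tests and alternatives were chosen with earlier results of these data known, and the cerebellar list after its values were seen. Full statistics were given for the 10 members with the smallest p for model against control, the 3 with the smallest p in each other comparison, and Cdk1, Mki67 and Top2a. Of each other list up to 4 genes were named, by smallest p or, for cell types, largest range. App, Prnp, Xist and Kdm5d checked the labels. Other genes, such as Cenpa, Snap25, Dcx and Nes, were named after their values were seen. Alternatives were other scalings (one median, quantile), dim genes left out, an intensity trend, array weights, a fit of only the 6 arrays in question, a block by replicate number, the mean of probe sets, the 3 arrays with raised granulocyte genes left out, Mpo as a covariate, the study's own test (analysis of variance, Student-Newman-Keuls), and each array left out in turn.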

Additional observations from a re-analysis of the deposited data

How the results depend on the processing

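Of the 38 genes, 0 passed limma's adjusted p in the 3 comparisons under any alternative. Counts below are at an unadjusted p under 0.05, where the reported values were 18 higher for model against control and 11 lower for HPYD against model. Brackets hold the share of all genes higher in the same fit, which was 2.87% as reported for model against control. Shares of genes lower are not given for the alternatives. Leaving out the dimmest 33.3% of genes, which keeps 13 of the 38, gave 3 (2.92%) and 0. They were 11 (2.86%) and 4 with only the 6 arrays compared and 1 (1.03%) and 5 with Mpo as a covariate. By the study's own test (analysis of variance, Student-Newman-Keuls) they were 2 (0.687%) and 2. With array weights the second count was 3. Leaving out 1 array gave 4 to 30 for the first (1.24% to 5.64%) and 2 to 28 for the second. For HPYD against control, where both counts were 0, it gave 0 to 2 higher (1.07% to 5.04%) and 0 to 1 lower. Without model group 1, model group 2 and HPYD group 2 together, 3 were lower. The cause was not tested beyond the fewer genes or arrays in each fit.

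The median difference between model and control over the 38 genes (0.34) was 0.54 with dim genes left out. Medians with dim genes left out, here and below, cover only the brighter members kept, and so not the same genes. The median over the 38 genes was 0.038 without the 3 arrays, which leaves model group 3 alone, and 0.14 with Mpo as a covariate. That over mitosis genes (0.38) was 0.94, 0.042 and 0.14 in the same order, and that over replication genes (0.27) was 0.033 without the 3 arrays. For HPYD against model, the median over the 38 genes (-0.30) was -0.043 without the 3 arrays. The mitosis median (-0.38) was -0.67 with dim genes left out, -0.046 without the 3 arrays and -0.17 with Mpo as a covariate. Leaving out 1 array gave medians of 0.21 to 0.47 over the 38 genes for model against control, and -0.53 to -0.18 over mitosis genes for HPYD against model. Over replication genes the latter ranged from -0.30 to 0.01. Mki67 changed sign for model against control (-0.15 without the 3 arrays) and for HPYD against control (-0.18 without the 3 arrays, -0.17 with Mpo as a covariate, -0.18 without HPYD group 2, and -0.18 to 0.58 when 1 array was left out). No other gene given with full statistics changed sign in its comparison, and the medians for HPYD against control ranged from -0.06 to 0.15.

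Replicate numbers in the labels gave no clear sign of pairing. Correlations of same-numbered arrays, after group means were subtracted, ranged from -0.32 to 0.18, with 2 of 9 over 0.1. Arrays of unlike number reached 0.59 (model group 3 with HPYD group 1), so these correlations cannot decide whether arrays were paired. With the replicate number as a block, 22 genes were higher for model against control at an unadjusted p under 0.05 (3.03% of all genes). For HPYD against model, 11 were lower.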
